A study of Mus musculus with 8 samples.

Results

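The genes described here are 9 members of the fibroblast growth factor (FGF) system of the developing kidney. They are the ligand genes Fgf8, Fgf9, Fgf10 and Fgf20, the receptor genes Fgfr1, Fgfr2, Fgfr3 and Fgfr4, and Fgfrl1, which encodes an FGF-binding receptor without a tyrosine kinase domain. They were taken by symbol from a table of 24539 genes, and all 9 were among the 13459 genes with enough counts to be tested. They were chosen by measured values as well as by function, because results of the same comparisons were in view: Fgf8 and Fgf9 were already known to differ strongly between the genotypes. Therefore the levels, changes and calls of these genes only describe where each one falls in the fit over all genes, and nothing is supported with them.

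The libraries hold polyadenylated RNA of mesenchymal nephron progenitors, the cells from which nephrons form, sorted from mouse kidneys at E18.5 of development. All embryos carried Six2GFPcre, in which regulatory sequence of the progenitor gene Six2 drives a GFP and Cre fusion, and the sort relied on it. KO-labelled embryos were Smo c/c, with both alleles of Smo conditional, and Het-labelled embryos were Smo c/+, with 1 conditional and 1 wild-type allele. WT-labelled embryos were Smo +/+, and SmoM2-labelled embryos were Smo +/+ and Rosa26 SmoM2/+, with an active form of Smo. Smo encodes the transducer of Hedgehog signals in the cell membrane, and the study varied its dose, with recombination limited to cells in which the Cre is active. Each group had 2 libraries, and the labels do not say whether these came from separate embryos. The WT-labelled pair and the SmoM2-labelled pair each held a male and a female pattern of counts, so these pairs came from different embryos. The p-values measure the spread between the libraries, which may be technical within the KO- and Het-labelled pairs.

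Smo itself was at 13.1 and 11.1 CPM (a count relative to the scaled library size) in KO-labelled libraries, 14.4 and 23.9 in Het-labelled libraries, 363 and 374 in WT-labelled libraries and 604 and 628 in SmoM2-labelled libraries. The Het-labelled level lay near the KO-labelled level and went against its label, so each group is called by its label throughout. Total listed counts were 4422305 to 10305398 per library and were lowest in the KO-labelled libraries. The summed level of 12 progenitor markers was 5367 to 5877 CPM in KO-labelled libraries, 6567 to 6960 in Het-labelled libraries, 4694 to 4985 in WT-labelled libraries and 4766 to 4809 in SmoM2-labelled libraries, and none of these markers was at 0. Markers of ureteric bud (12 genes, at most 75.1 CPM summed), endothelium (6 genes, at most 4.87), podocytes (5 genes, at most 58.4) and immune cells (6 genes, at most 47.1) were low in all 8 libraries. Both KO-labelled libraries showed the male and both Het-labelled libraries the female pattern of Xist and Y-linked counts, while the other groups had 1 of each. A set of 20 genes known to respond to tissue dissociation summed to 6482 to 8437 CPM in the KO-labelled and 10928 to 10957 in the Het-labelled libraries, against 4390 to 4723 in the WT-labelled and 4815 to 7011 in the SmoM2-labelled libraries.

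FGF ligands are secreted proteins that bind receptor tyrosine kinases together with heparan sulfate on the cell surface, and the activated receptor signals through FRS2, RAS and the MAP kinases. In the kidney, Fgf9 and Fgf20 are known to keep nephron progenitors alive and undifferentiated, with Fgf9 also made by the ureteric bud. Fgf8 is known for its expression in the pretubular aggregate and renal vesicle, where it supports cell survival and the first steps of nephron formation. Fgf10, whose main receptor is the epithelial form of Fgfr2, supports branching of the ureteric bud, and Fgfr1 and Fgfr2 together are needed in the metanephric mesenchyme.

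In the 4 KO- and Het-labelled libraries Fgf8, Fgf9 and Fgfrl1 were each higher than in any of the 4 WT- and SmoM2-labelled libraries, and Fgf10 was lower. Of all tested genes, 16.5% lay above and 16.6% below in the same way, so this split is common. The sequence before the RefSeq start was sought for these 4 members because their levels parted the libraries in this way. The RefSeq promoter table (build GRCm38.p6) held 6 of the 9 members, among them 3 of these 4, and the 250 bases before that start are printed 5′ to 3′ on the gene's strand. Capitals mark a match to the motif CCGGAAGT, read by ETS factors, which are known effectors of FGF signals. The Fgf9 window is chr14:58072436-58072685, the Fgf10 window chr13:118714449-118714698 and the Fgfrl1 window chr5:108693979-108694228, all on the plus strand, and no exon of the GENCODE M21 annotation overlaps them. All 3 windows lie inside the GENCODE spans of their genes, which begin further upstream, and so are not sequence upstream of the whole gene.
Fgf9: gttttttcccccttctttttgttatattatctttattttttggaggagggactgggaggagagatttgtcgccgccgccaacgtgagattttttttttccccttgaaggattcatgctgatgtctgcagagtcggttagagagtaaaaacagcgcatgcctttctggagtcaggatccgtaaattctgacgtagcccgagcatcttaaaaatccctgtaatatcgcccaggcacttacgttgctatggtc
Fgf10: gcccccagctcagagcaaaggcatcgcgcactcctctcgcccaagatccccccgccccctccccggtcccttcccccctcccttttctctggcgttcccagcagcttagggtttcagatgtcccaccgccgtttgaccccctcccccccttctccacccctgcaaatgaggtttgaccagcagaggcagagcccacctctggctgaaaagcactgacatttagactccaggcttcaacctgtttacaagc
Fgfrl1: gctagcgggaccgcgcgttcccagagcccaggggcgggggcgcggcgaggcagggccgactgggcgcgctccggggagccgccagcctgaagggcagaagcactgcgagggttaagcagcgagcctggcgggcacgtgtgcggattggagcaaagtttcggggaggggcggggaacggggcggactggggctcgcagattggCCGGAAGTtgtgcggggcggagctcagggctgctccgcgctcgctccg
The Fgfrl1 window was rich in G and C, at 73.6%, with 30 CpG dinucleotides, against 61.2% and 8 for Fgf10 and 44.8% and 11 for Fgf9. The median over all 32851 windows of this length was 52.4%. Both strands were searched for CCGGAAGT, for the GLI motif GACCACCCA and for the TCF/LEF motif CTTTGAT. The match in the Fgfrl1 window began 48 bases before the start (position -48), and the Fgf9 and Fgf10 windows held none of the 3 motifs. Of all windows, 2.88% held the ETS motif, 0.225% the GLI motif and 3.21% the TCF/LEF motif. A match describes the letters of a window and does not show binding.

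Among the ligands, Fgf8 (chr19:45736798-45742915, minus strand, GRCm38) had the widest range of levels. It stood at 116 and 89.8 CPM in the KO-labelled and at 64.2 and 68.9 CPM in the Het-labelled libraries. In the WT-labelled libraries it stood at 4.0 and 8.27 CPM, and in the SmoM2-labelled libraries at 4.09 and 6.12 CPM. The lowest library of the first 2 groups was thus far above the highest of the others, and the KO-labelled libraries were both above the Het-labelled ones, while WT- and SmoM2-labelled libraries overlapped. Group means were 103 ± 18.6 CPM (SD, n = 2) in KO-labelled libraries, 66.6 ± 3.29 in Het-labelled libraries, 6.14 ± 3.02 in WT-labelled libraries and 5.10 ± 1.44 in SmoM2-labelled libraries. The log2 change from WT-labelled libraries was 4.09 ± 0.28 (SE) in the KO-labelled libraries, a 17-fold difference, and 3.46 ± 0.27 in the Het-labelled libraries, an 11-fold difference. Among all tested genes these were the 11th and the 14th largest rises. Between KO- and Het-labelled libraries the log2 change was 0.63 ± 0.23, and between SmoM2- and WT-labelled libraries it was -0.25 ± 0.33. In bulk libraries, fewer cells that express a gene and less RNA per cell cannot be told apart.

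Fgf9 (chr14:58070547-58112720, plus strand) was a rarer transcript with a change of similar size. It stood at 8.19 and 10 CPM in the KO-labelled and at 6.54 and 11.0 CPM in the Het-labelled libraries. In the WT-labelled libraries it stood at 0.559 and 0.544 CPM, and in the SmoM2-labelled libraries at 0.409 and 0.693 CPM. Both sides were again apart, and within each side the groups overlapped. The low values rest on 4 to 6 reads per library and the high ones on 37 to 65. Fgf9 therefore passed the filter on low counts only through the KO- and Het-labelled libraries, where it was high. The exact 95% Poisson interval of the highest low library, SmoM2-labelled replicate 2, was 0.254 to 1.51 CPM, and that of the lowest high library, Het-labelled replicate 1, was 4.84 to 8.65 CPM. These intervals cover counting error only. The log2 change from WT-labelled libraries was 4.0 ± 0.46 (SE) in the KO-labelled and 3.94 ± 0.45 in the Het-labelled libraries, the 15th and the 7th largest rises. KO- and Het-labelled libraries differed by 0.06 ± 0.35 and SmoM2- and WT-labelled libraries by -0.02 ± 0.62.

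Fgf20 (chr8:40279166-40308331, minus strand), which acts beside Fgf9 in progenitor maintenance, did not follow it. Its levels were 32.3 and 29.6 CPM in KO-labelled libraries, 30.2 and 36.8 in Het-labelled libraries, 37.2 and 15.4 in WT-labelled libraries and 22.4 and 16.4 in SmoM2-labelled libraries. WT-labelled replicate 1 was the highest of all 8 libraries and WT-labelled replicate 2 the lowest, so the WT-labelled pair spanned the whole range. The log2 change from WT-labelled libraries was 0.23 ± 0.33 (SE) in the KO-labelled and 0.34 ± 0.32 in the Het-labelled libraries, and neither was called. Without WT-labelled replicate 1 these became 1.0 and 1.11, both called, and without WT-labelled replicate 2 they became -0.30 and -0.18. The Het-labelled value was also called with sex as a covariate (0.88), and it was 1.29 and not called with the dissociation genes as a covariate. Between KO- and Het-labelled libraries Fgf20 differed by -0.11 ± 0.33, and by -0.98 with the sex covariate, neither of them called. Exons of Fgf20 overlap those of Micu3 on the opposite strand, and the strand setting of the counting is not given in the sources used here, so reads of the pair may be mixed. Micu3 was at 22.0 ± 1.42 CPM (SD, n = 2) in the WT-labelled and 13.0 ± 0.602 in the Het-labelled libraries, 2 groups that overlapped for Fgf20.

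Fgf10 (chr13:118669791-118792115, plus strand) was the ligand with lower levels on the side of the KO- and Het-labelled libraries. It stood at 37.6 and 40.7 CPM in KO-labelled libraries, 47.0 and 46.8 in Het-labelled libraries, 62.0 and 53.0 in WT-labelled libraries and 64.6 and 49.0 in SmoM2-labelled libraries. The 3 groups KO, Het and WT did not overlap and lay in that order, while WT- and SmoM2-labelled libraries overlapped. The share of all tested genes in this order was not counted. The log2 change from WT-labelled libraries was -0.56 ± 0.16 (SE) in the KO-labelled libraries, which was called, and -0.29 ± 0.16 in the Het-labelled libraries, which was not. The call was lost without KO-labelled replicate 1 (-0.50), KO-labelled replicate 2 (-0.62) or WT-labelled replicate 1 (-0.44), and with the library totals that the authors' RPKM values imply (-0.50).

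**Figure D1:**
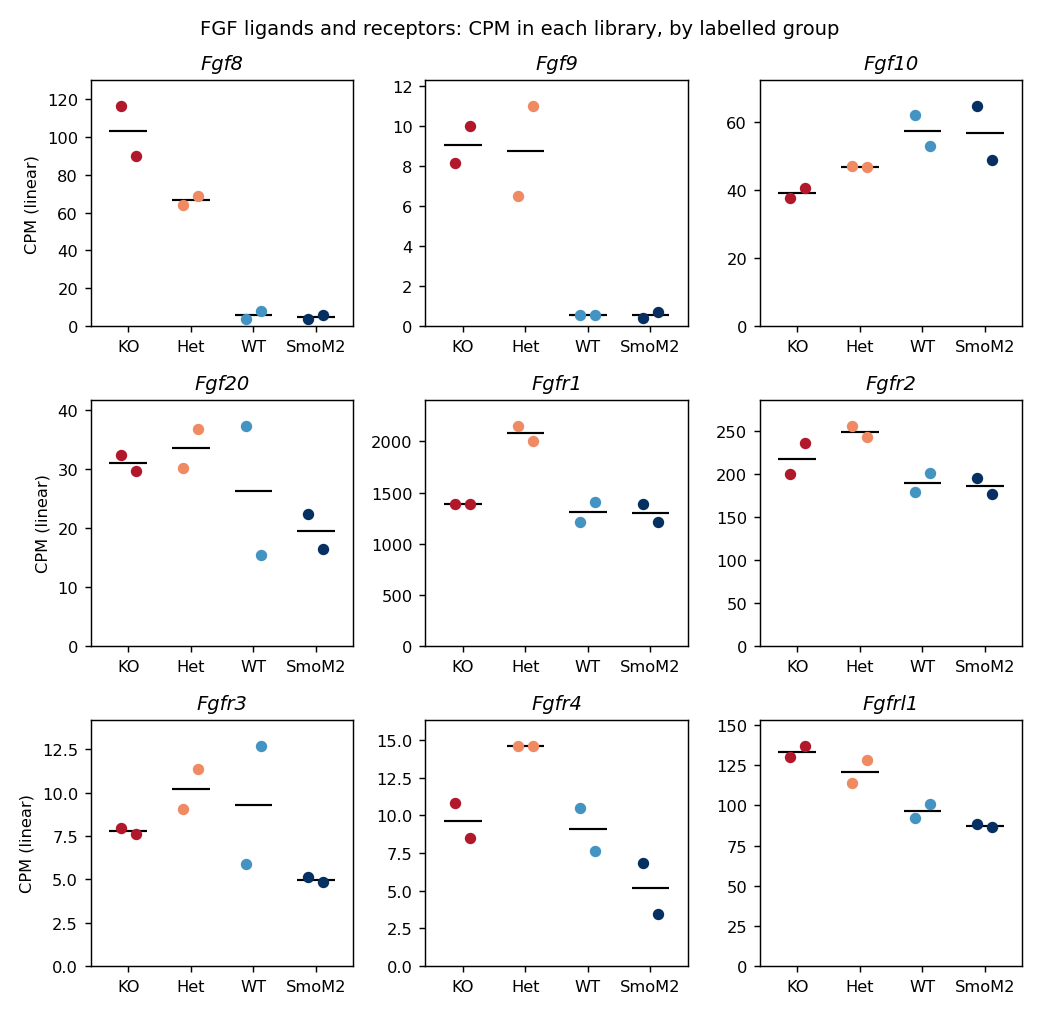
CPM (linear axis from 0) of each of the 9 genes by labelled group, with a point for each library and a bar at the mean of the 2. Fgf8 and Fgf9 part the KO- and Het-labelled libraries from the rest, Fgfr1 is highest in the Het-labelled libraries at 2149 and 2008 CPM, and the WT-labelled points of Fgf20 lie at 37.2 and 15.4 CPM.

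Of the receptors, Fgfr1 (chr8:25513654-25575718, plus strand), the main FGF receptor of mesenchymal cells, stood apart in the Het-labelled libraries. It was at 2149 and 2008 CPM there, against 1384 and 1386 in the KO-labelled, 1215 and 1412 in the WT-labelled and 1388 and 1216 in the SmoM2-labelled libraries. The other 3 groups overlapped each other. The log2 change was 0.66 ± 0.13 (SE) in Het- against WT-labelled libraries and -0.59 ± 0.13 in KO- against Het-labelled libraries, and both were called. In KO- against WT-labelled libraries it was 0.08 ± 0.13. The first call was lost without Het-labelled replicate 1 (0.58), and the second without any single KO- or Het-labelled library, where the value ranged from -0.65 to -0.54. Sex was also tied to this pair of groups, and with sex as a covariate the KO- against Het-labelled value was -0.57 and not called. Gm16159, annotated as antisense to Fgfr1 with overlapping exons, was at 22.6 ± 2.74 CPM (SD, n = 2) in the Het-labelled and 11.9 ± 0.736 in the WT-labelled libraries. Each gene has its own count, but without a known strand setting reads in the overlapping exons may be mixed.

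Fgfr2 (chr7:130162451-133123350, minus strand), the second receptor of the progenitors, was at 200 and 236 CPM in the KO-labelled and 256 and 243 in the Het-labelled libraries. It was at 179 and 201 CPM in the WT-labelled and 196 and 177 in the SmoM2-labelled libraries. The Het-labelled libraries were above all others, and WT-labelled libraries overlapped both KO- and SmoM2-labelled libraries. The Het- against WT-labelled log2 change was 0.39 ± 0.13 (SE) and called, but the call was lost without Het-labelled replicate 1 (0.32), Het-labelled replicate 2 (0.41), WT-labelled replicate 1 (0.31), WT-labelled replicate 2 (0.45), SmoM2-labelled replicate 1 (0.37) or SmoM2-labelled replicate 2 (0.37). The KO- against WT-labelled value was 0.20 ± 0.13. The table does not tell the epithelial and mesenchymal splice forms of Fgfr2 apart. The GENCODE span given for Fgfr2 is 2960900 bases long and takes in many other genes. Its exons overlap those of Ctbp2 on the same strand, so reads of that pair may be mixed.

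Fgfrl1 (chr5:108692382-108706924, plus strand), which binds FGFs without passing on a kinase signal and is known to be needed for nephron formation, was at 130.1 and 137 CPM in the KO-labelled and 114 and 128 in the Het-labelled libraries. It was at 92.2 and 101 CPM in the WT-labelled and 88.5 and 86.3 in the SmoM2-labelled libraries. The 4 groups did not overlap and lay in the order KO, Het, WT, SmoM2. How many of all tested genes lay in such an order was not counted. The log2 change was 0.47 ± 0.12 (SE) in KO- against WT-labelled libraries, which was called, and 0.32 ± 0.12 in Het- against WT-labelled libraries, which was not. The call was lost without any single KO- or WT-labelled library, with values between 0.40 and 0.50.

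Fgfr3 and Fgfr4 were the rarest receptors. Fgfr3 (chr5:33721674-33737068, plus strand) was at 7.96 and 7.61 CPM in KO-labelled libraries, 9.08 and 11.4 in Het-labelled libraries, 5.87 and 12.7 in WT-labelled libraries and 5.11 and 4.85 in SmoM2-labelled libraries. The WT-labelled pair spanned the KO- and Het-labelled values. Fgfr4 (chr13:55152640-55168759, plus strand) was at 10.8 and 8.48 CPM in KO-labelled libraries, 14.6 and 14.6 in Het-labelled libraries, 10.5 and 7.62 in WT-labelled libraries and 6.84 and 3.46 in SmoM2-labelled libraries. Its Het-labelled libraries were the highest and its SmoM2-labelled libraries the lowest, and KO- and WT-labelled libraries overlapped. In SmoM2- against WT-labelled libraries the log2 change was -0.89 ± 0.35 (SE) for Fgfr3 and -0.81 ± 0.32 for Fgfr4, and neither was called.

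To compare genes with each other, counts were also divided by the gene length in the deposited table (RPKM on the scaled library sizes). Fgfr1 had the highest level per length of the 9 genes in every group, at 276 ± 0.226 RPKM (SD, n = 2) in KO-labelled libraries, 414 ± 19.8 in Het-labelled libraries, 261 ± 27.7 in WT-labelled libraries and 259 ± 24.2 in SmoM2-labelled libraries. It made up 73.3% to 75.0% of the receptor sum in the KO-labelled and 79.9% to 81.4% in the Het-labelled libraries, with 76.8% to 79.1% in the others. Fgfr3 and Fgfr4 together with Fgf9 lay at the low end of the order in every group, at 0.133 to 4.63 RPKM on average. Fgfr2 and Fgfrl1 lay close to each other and overlapped in the Het-, WT- and SmoM2-labelled libraries. Other neighbours in the order that overlapped were Fgf20 and Fgf10 as well as Fgfr4 and Fgfr3 in the WT- and SmoM2-labelled libraries, and Fgfr3 and Fgf9 in the Het-labelled libraries.

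The place of Fgf8 in this order differed most. In the KO-labelled libraries it came second, at 78.1 ± 14.1 RPKM (SD, n = 2), above Fgfrl1, Fgfr2 and every other ligand, and in the Het-labelled libraries it came second at 50.5 ± 2.5. In the WT- and SmoM2-labelled libraries it came 6th, at 4.65 ± 2.29 and 3.87 ± 1.09, below Fgf20 and Fgf10 and, in the WT-labelled libraries, overlapping Fgfr4. Its share of the summed level of the 4 ligands was 68.5% to 73.3% in the KO-labelled and 58.0% to 60.1% in the Het-labelled libraries, and 7.24% to 22.0% in the WT-labelled and 9.54% to 17.4% in the SmoM2-labelled libraries. Fgf20 made up 36.8% to 60.1% of that sum in the WT-labelled and 41.7% to 46.7% in the SmoM2-labelled libraries. Fgf10 made up 32.4% to 40.7% and 40.2% to 43.5% in the same groups, and in WT-labelled replicate 2 its share was above that of Fgf20. The sum itself was 99.5 to 120.1 RPKM in KO-labelled libraries, 81.0 to 90.1 in Het-labelled libraries, 28.5 to 41.9 in WT-labelled libraries and 26.6 to 32.5 in SmoM2-labelled libraries. Fgf9 never made up more than 2.96% of it.

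**Figure D2:**
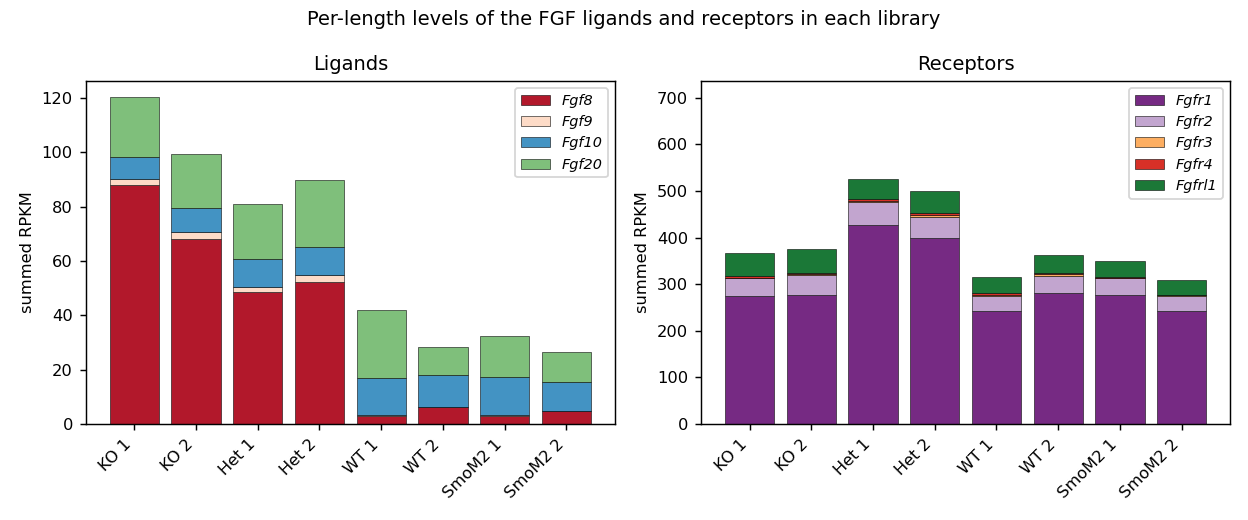
Level per gene length (RPKM, stacked from 0) of the 4 ligands on the left and the 5 receptors on the right, with a bar for each library. The ligand bars are tallest in the KO-labelled libraries, at 99.5 to 120.1 RPKM, where Fgf8 fills most of the bar, and Fgfr1 fills most of every receptor bar.

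KO-labelled were compared with WT-labelled libraries to see which of the genes differ once both Smo alleles are lost. A gene was called when its adjusted p from the quasi-likelihood test of edgeR was under 0.05. Of the 9 genes 4 were called, with Fgf8, Fgf9 and Fgfrl1 higher and Fgf10 lower. Fgf9 passed the filter on low counts only through the libraries where it was high. Its calls here and in the comparisons below are therefore not read as results. Of all tested genes 23% were called, 11.6% higher and 11.4% lower, and because the genes were chosen with this comparison in view the count is read no further. The median log2 change was 0.20 over the 9 genes and 0.03 over all tested genes. Fgf8 and Fgf9 remained called without any single library, while the count fell to 2 without KO-labelled replicate 1 or KO-labelled replicate 2.

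Het-labelled were compared with WT-labelled libraries, by label the comparison for 1 conditional Smo allele. With Smo at 14.4 and 23.9 CPM in the Het-labelled libraries, it cannot be read as the loss of 1 allele. Fgf8, Fgf9, Fgfr1 and Fgfr2 were called higher, none was called lower, and the share called among all tested genes was 25.3%, with 13.1% higher and 12.2% lower. The median log2 change was 0.39 over the 9 genes and -0.02 over all. The count fell to 2 without Het-labelled replicate 1. Both comparisons use the same WT-labelled libraries and are not independent.

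SmoM2-labelled were compared with WT-labelled libraries to see the effect of active Smo. None of the 9 genes was called by edgeR or by DESeq2, where 0.223% of all tested genes were called by edgeR, and 2 members, Fgfr3 and Fgfr4, had an unadjusted edgeR p under 0.05. The log2 changes ranged from -0.89 to -0.01 over the 9 genes.

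KO-labelled were compared with Het-labelled libraries, which differ by label in the wild-type Smo allele but had Smo at similarly low levels. Only Fgfr1 was called, lower in the KO-labelled libraries, and 9.43% of all tested genes were called, 4.33% higher and 5.1% lower. The call of Fgfr1 was lost when any single KO- or Het-labelled library was left out, and no other member was called in those fits. Fgf8 was higher in both KO-labelled than in both Het-labelled libraries and was not called. It was called in fits without WT-labelled replicate 1 (0.63) or WT-labelled replicate 2 (0.62), with no filter on low counts (0.61), with these groups alone in the fit (0.62) and with sex as a covariate (1.46). With the sex covariate Fgfr4 (-1.28) was called as well. Both KO-labelled libraries were male and both Het-labelled libraries female in pattern, so that fit takes its sex effect from the other groups alone. There, replicate 1 was always male and replicate 2 always female. Values with this covariate are thus not differences freed of sex, and in this comparison sex and genotype cannot be told apart.

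With the 4 KO- and Het-labelled libraries set against the 4 WT- and SmoM2-labelled libraries, that is with against without a conditional Smo allele, 7 of the 9 genes were called. Fgf8, Fgf9, Fgfr1, Fgfr2, Fgfr4 and Fgfrl1 were higher and Fgf10 was lower, against 43.5% of all tested genes called, 22% higher and 21.5% lower. The log2 change was 3.90 ± 0.20 (SE) for Fgf8, 3.98 ± 0.32 for Fgf9, 0.79 ± 0.23 for Fgfr4, 0.47 ± 0.09 for Fgfrl1, 0.38 ± 0.09 for Fgfr1, 0.31 ± 0.09 for Fgfr2 and -0.42 ± 0.11 for Fgf10. All 4 libraries lay above the other 4 for 3 genes, Fgf8, Fgf9 and Fgfrl1, as they did for 16.5% of all tested genes, and below for Fgf10, as for 16.6%. Without SmoM2-labelled replicate 2 the number called was 4.

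**Figure D3:**
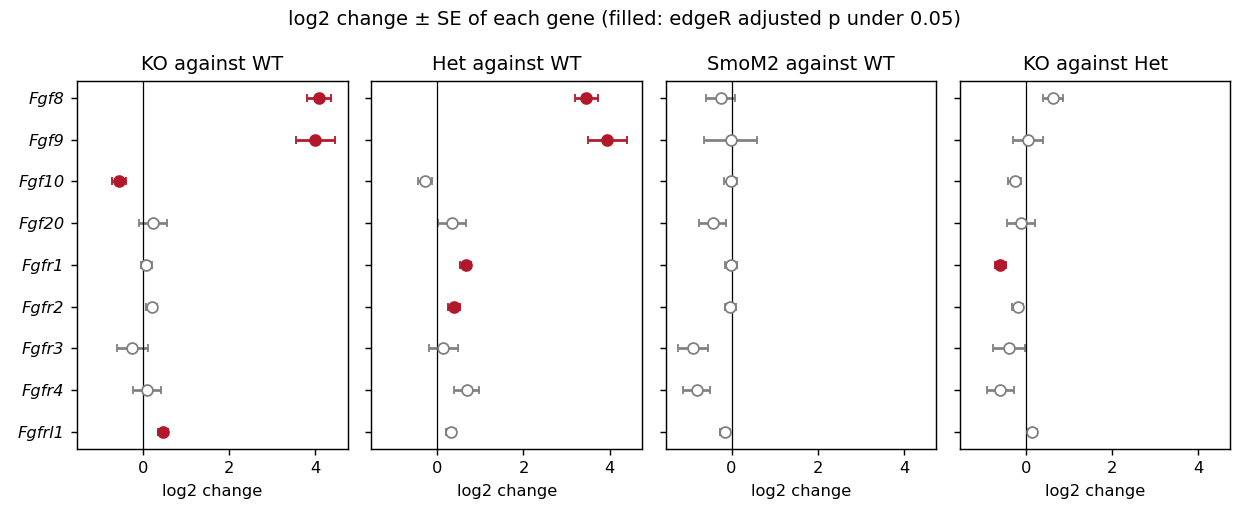
Log2 change (horizontal axis) with its SE of each of the 9 genes in 4 comparisons, with filled points for an edgeR adjusted p under 0.05. Fgf8 and Fgf9 lie near 4 in the KO- and Het-labelled libraries against the WT-labelled libraries, and no point is filled for SmoM2-labelled libraries.

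Among all tested genes 23% were called in KO- against WT-labelled and 25.3% in Het- against WT-labelled libraries. Of the 20 dissociation genes 10 rose and none was called lower in KO- against WT-labelled libraries. In Het- against WT-labelled libraries 13 of them rose and 1 fell. Their summed levels overlapped between the sides, with SmoM2-labelled replicate 2 at 7011 CPM and KO-labelled replicate 1 at 6482 CPM. Of the 10 calls 4 were kept without KO-labelled replicate 2 or WT-labelled replicate 2, and 5 without WT-labelled replicate 1. With the mean level of the 20 dissociation genes as a covariate, Fgf8 and Fgf9 were called in KO- against WT-labelled libraries, at log2 3.85 and 3.18. Against the same libraries the Het-labelled values were 3.0 and 2.45, and neither was called. None of the other members was called in either comparison with this covariate. Fgf8 and Fgf9 were chosen with their differences known, so their calls here only describe the fit. Of all tested genes it left 6.26% called in KO- against WT-labelled and 1.02% in Het- against WT-labelled libraries. Erythroid genes parted the sides, with 6 genes that summed to 13.7 to 45.1 CPM in KO-labelled libraries, 19.9 to 24.8 in Het-labelled libraries, 4.10 to 5.22 in WT-labelled libraries and 2.77 to 7.87 in SmoM2-labelled libraries. The part of the dissociation response and of erythroid cells in the FGF results was not tested.

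The other genes of the FGF pathway were followed in lists chosen with earlier results of these libraries known. Counts called in these lists are therefore a description and are read no further. Of 18 further FGF ligand genes 5 were tested. Fgf1 was the most abundant of them, at 109.7 and 101 CPM in KO-labelled libraries, 97.9 and 89.1 in Het-labelled libraries, 139 and 69.1 in WT-labelled libraries and 129 and 114 in SmoM2-labelled libraries, and it was called in no comparison. Fgf15, the endocrine ligand of the intestine, stood at only 1.55 and 1.96 CPM in the KO-labelled libraries and at 0 and 0.218 CPM in the WT-labelled libraries. It passed the filter on low counts through the KO-labelled libraries alone, with at most 3 reads in any other library, so its call is not counted as a result. The median log2 change of the 5 tested ligands was 0.64 in KO- and 0.84 in Het- against WT-labelled libraries, and the latter was 0.34 with Fgf15 left out.

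Co-receptor and heparan sulfate genes, which set how ligands reach their receptors, made up a list of 28 genes with 26 tested. Among all tested genes 23% were called in KO- against WT-labelled, 25.3% in Het- against WT-labelled and 9.43% in KO- against Het-labelled libraries. In KO- against WT-labelled libraries 2 rose and 8 fell, and the median log2 change was -0.35, beside 0.03 over all tested genes. The glypican core proteins Gpc2 (log2 0.77, SE 0.17, edgeR adjusted p 0.00902) and Gpc4 (0.86, edgeR adjusted p 0.00782) rose. The glypican Gpc6 fell from 344 and 331 to 152 and 179.7 CPM (log2 -1.02, SE 0.13, edgeR adjusted p 0.000531). Flrt3, a membrane protein that binds FGF receptors, fell from 30.2 and 25.8 to 8.19 and 12.4 CPM (log2 -1.44, SE 0.24, edgeR adjusted p 0.00226). The sulfotransferases Ndst1 (-0.84) and Hs2st1 (-0.83), the endosulfatase Sulf2 (-0.67), the perlecan gene Hspg2 (-0.61), Flrt1 (-1.0) and the syndecan Sdc3 (-0.59) were the other called falls. In Het- against WT-labelled libraries 3 rose and 5 fell, with a median of -0.04, and in KO- against Het-labelled libraries 6 fell and none rose. With the dissociation covariate 4 of the 10 KO- against WT-labelled calls and 0 of the 8 Het- against WT-labelled calls were kept, and without Het-labelled replicate 1 none of the 6 KO- against Het-labelled calls was kept. Those calls numbered 3 without Het-labelled replicate 2 or KO-labelled replicate 2 and 2 without KO-labelled replicate 1. The Het- against WT-labelled calls numbered 5 without Het-labelled replicate 1 or Het-labelled replicate 2.

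The 27 genes of signal transduction from receptor to kinase were all tested. Their calls stand beside 23% of all tested genes in KO- against WT-labelled libraries. That share was 25.3% in Het- against WT-labelled and 9.43% in KO- against Het-labelled libraries. In KO- against WT-labelled libraries 3 rose and 7 fell, with a median log2 change of -0.17. Map2k1, the kinase that phosphorylates ERK, rose from 51.4 and 49.2 to 111 and 109 CPM (log2 1.13, SE 0.13, edgeR adjusted p 0.000338), and in the Het-labelled libraries it stood at 138 and 119 CPM (log2 1.35, edgeR adjusted p 0.000105). Hras (0.74) and Map2k2 (0.45) were the other rises. Frs2, the adaptor that docks on FGF receptors, fell from 78.2 and 84.4 to 40.9 and 47.9 CPM (log2 -0.87, SE 0.14, edgeR adjusted p 0.00176), and Braf, a kinase between RAS and Map2k1, fell by 1.01 on the log2 scale (SE 0.15, edgeR adjusted p 0.00131). The adaptor Gab1 (-0.70), the RAS exchange factors Sos1 (-0.53) and Sos2 (-0.74), the phospholipase Plcg1 (-0.51) and the ubiquitin ligase Cbl (-0.77) fell as well. Hras, Map2k1 and Map2k2 also rose in Het- against WT-labelled libraries, where Braf, Frs2 and Gab1 fell, and in KO- against Het-labelled libraries 1 gene of the list, the adaptor Shc1, was called lower. The KO- against WT-labelled calls kept numbered 5 of 10 without KO-labelled replicate 1, 6 without WT-labelled replicate 1 and 3 with the dissociation covariate. The Het- against WT-labelled calls kept numbered 2 of 6 without Het-labelled replicate 1, Het-labelled replicate 2 or WT-labelled replicate 2, 3 without WT-labelled replicate 1, 4 without SmoM2-labelled replicate 1 or SmoM2-labelled replicate 2, and 1 with the dissociation covariate. The Shc1 call was lost without any single KO- or Het-labelled library.

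Feedback inhibitors and ETS factors, which are commonly read as outputs of FGF signals, gave a list of 14 genes with 13 tested. Shares called among all tested genes were 23% in KO- against WT-labelled, 25.3% in Het- against WT-labelled and 9.43% in KO- against Het-labelled libraries. In KO- against WT-labelled libraries 2 rose and 3 fell, with a median log2 change of 0.18. The inhibitor Spry1 rose from 189.5 and 207 to 281 and 337 CPM (log2 0.64, SE 0.15, edgeR adjusted p 0.0113), and the phosphatase Dusp5 rose (log2 1.30, edgeR adjusted p 0.00865). The inhibitors Spred2 (-0.56) and Spred3 (-0.78) and the factor Etv5 (-0.39) fell. For Het- against WT-labelled libraries Spry4 (0.76), Dusp5 (1.13), Dusp6 (0.47) and Etv4 (0.48) rose and none was called lower, and in KO- against Het-labelled libraries Spred3 and Etv5 were called lower. None of the list was called in SmoM2- against WT-labelled libraries, where 3 had an unadjusted edgeR p under 0.05. With the dissociation covariate none of the calls against WT-labelled libraries was kept, and Dusp5 and Dusp6 had the opposite sign in Het- against WT-labelled libraries, at -0.04 and -0.25. Without Het-labelled replicate 1 none of the 4 Het- against WT-labelled calls and none of the 2 KO- against Het-labelled calls was kept. The Het- against WT-labelled calls numbered 1 without WT-labelled replicate 1 and 2 without Het-labelled replicate 2. The KO- against WT-labelled calls numbered 2 without KO-labelled replicate 2 or WT-labelled replicate 1 and 3 without KO-labelled replicate 1, and the KO- against Het-labelled calls numbered 1 without KO-labelled replicate 1, KO-labelled replicate 2 or Het-labelled replicate 2.

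**Figure D4:**
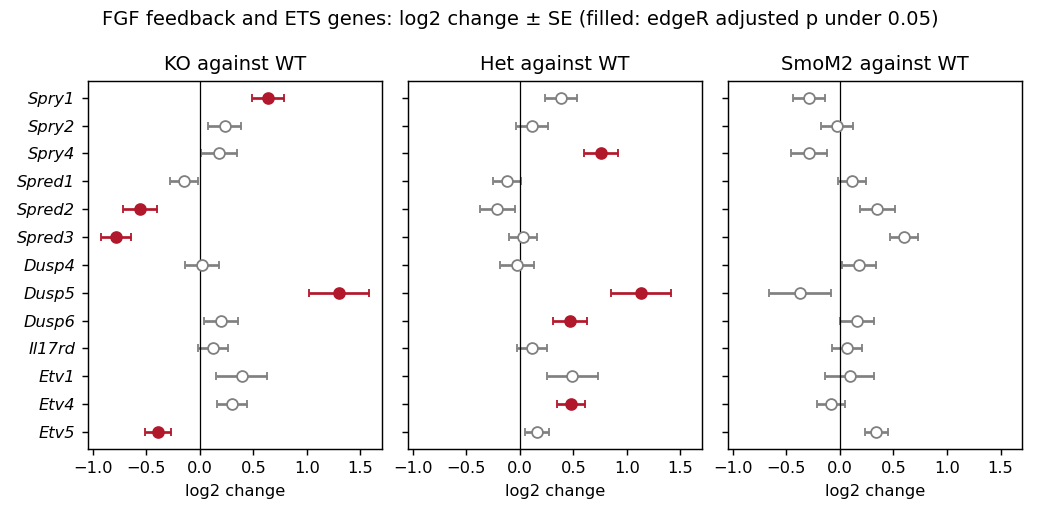
Log2 change (horizontal axis) with its SE of the 13 tested feedback and ETS genes in 3 comparisons with WT-labelled libraries, with filled points for an edgeR adjusted p under 0.05. Dusp5 is called higher in the KO- and Het-labelled libraries, Spred2, Spred3 and Etv5 are called lower in the KO-labelled libraries, and no point is filled for the SmoM2-labelled libraries.

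Because Fgf8 is known from the renal vesicle, its levels were set beside 15 genes of that stage. Over all tested genes the share called was 23% in KO- against WT-labelled libraries. It was 25.3% in Het- against WT-labelled and 9.43% in KO- against Het-labelled libraries. In KO- against WT-labelled libraries 10 of the 15 rose and none was called lower, with a median log2 change of 1.4. For Het- against WT-labelled libraries 1 rose, Pax8, and 1 fell, Greb1, with a median of -0.16, which was 0.06 with Pou3f3 at the bound that 3 reads allow, and in KO- against Het-labelled libraries 8 rose. Lhx1, a transcription factor gene that marks the renal vesicle, was at 62.2 and 122 CPM in KO-labelled libraries, 4.67 and 9.33 in Het-labelled libraries, 4.66 and 10.9 in WT-labelled libraries and 4.49 and 6.35 in SmoM2-labelled libraries (KO against Het log2 3.75, SE 0.44, edgeR adjusted p 0.00427). The Notch ligand gene Jag1 was at 107 and 178 CPM in the KO-labelled libraries and at most 71.8 CPM in the other 6. Fgf8 was high in both the KO- and the Het-labelled libraries, and Lhx1 in the KO-labelled libraries alone. Other genes of the list were mixed, with Het-labelled means above the WT-labelled mean for some and below it for others. Pax8 averaged 402 CPM in KO-labelled, 284 in Het-labelled, 164 in WT-labelled and 185 in SmoM2-labelled libraries. Greb1 averaged 36.4, 12.3, 28.9 and 23.8 CPM in the same order of groups. The part of renal vesicle cells in the Fgf8 levels was not tested. The summed level of the 15 genes was 1829 to 2247 CPM in KO-labelled libraries, 908 to 1278 in Het-labelled libraries, 822 to 1257 in WT-labelled libraries and 939 to 1214 in SmoM2-labelled libraries. Of the 8 KO- against Het-labelled calls 1 was kept without Het-labelled replicate 1, when the call of Jag1 was among those lost, and 4 without KO-labelled replicate 2. With the dissociation covariate 3 of the 10 KO- against WT-labelled calls and 6 of the 8 KO- against Het-labelled calls were kept.

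Progenitor markers moved in both directions. The share called over all tested genes was 23% in KO- against WT-labelled and 25.3% in Het- against WT-labelled libraries. Of 12 markers, 3 rose and 1 fell in KO- against WT-labelled libraries, with a median log2 change of 0.13, and 6 rose and none was called lower in Het- against WT-labelled libraries, with a median of 0.49. Cited1, a marker of the least differentiated progenitors, was at 385 and 271 CPM in KO-labelled libraries, 505 and 371 in Het-labelled libraries, 173 and 123 in WT-labelled libraries and 107 and 85.3 in SmoM2-labelled libraries. Gdnf, the ligand that draws out the ureteric bud, was the marker called lower, at 118 and 83.7 CPM in the KO-labelled against 156 and 172 CPM in the WT-labelled libraries. Of the 4 KO- against WT-labelled calls 2 were kept without KO-labelled replicate 2, WT-labelled replicate 1 or WT-labelled replicate 2 and with the dissociation covariate. Of the 6 Het- against WT-labelled calls 3 were kept without Het-labelled replicate 1 or WT-labelled replicate 2, 4 without Het-labelled replicate 2 and 1 with that covariate.

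The 12 stromal genes summed to 236 to 917 CPM in KO-labelled libraries, 317 to 523 in Het-labelled libraries, 461 to 774 in WT-labelled libraries and 744 to 873 in SmoM2-labelled libraries. Of the 11 tested, Meis1 and Acta2 rose and Foxd1 fell in KO- against WT-labelled libraries, where 23% of all tested genes were called. In Het- against WT-labelled libraries, where 25.3% were called, Meis1 rose and Foxd1 fell. Foxd1, the defining gene of the stromal lineage, was at 12.8 and 3.70 CPM in the KO-labelled and 22.4 and 14.6 in the Het-labelled libraries, against 196 and 171 in the WT-labelled and 384 and 300.4 in the SmoM2-labelled libraries. Meis1, a homeobox gene, went the other way, at 86.3 and 98.3 CPM in the KO-labelled and 114 and 99.8 in the Het-labelled libraries, against 17.0 and 11.8 in the WT-labelled and 10.4 and 11.5 in the SmoM2-labelled libraries. Acta2, which encodes smooth muscle actin, was at 31.6 and 16.1 CPM in the KO-labelled and 9.5 and 7.94 in the WT-labelled libraries, and its call was lost without KO-labelled replicate 1 or WT-labelled replicate 2. The part of these genes in the FGF results was not tested.

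**Figure D5:**
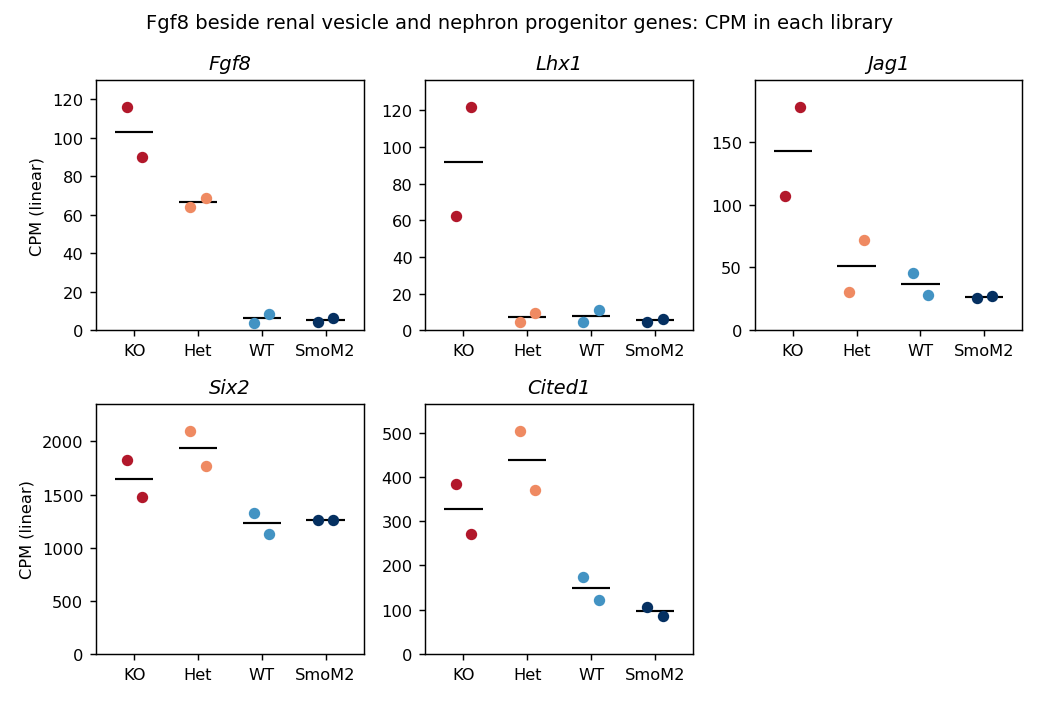
CPM (linear axis from 0) of Fgf8, of the renal vesicle genes Lhx1 and Jag1 and of the progenitor genes Six2 and Cited1 by labelled group, with a point for each library and a bar at the mean of the 2. Fgf8 is at 64.2 CPM or more in the KO- and Het-labelled libraries. Lhx1 is at 62.2 and 122 CPM in the KO-labelled libraries and at most 10.9 CPM in the other 6. Other renal vesicle genes of the list, such as Pax8, are not drawn.

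Finally, the genes whose log2 CPM followed each member most closely were listed by Pearson's r over the 8 libraries, as a description for members whose group means spanned at least 1 on the log2 scale. The search covered 12457 genes, and the libraries share their split into 2 sides, so high values of r are common. Closest to Fgf8 were Phb (r = 0.995), which encodes a mitochondrial scaffold protein, Dad1 (0.991), a subunit of the enzyme of N-glycosylation, and AA465934 (0.991). Phb was at 158 CPM on average in KO-labelled libraries, 147 in Het-labelled libraries, 76.3 in WT-labelled libraries and 70.7 in SmoM2-labelled libraries. Closest to Fgf9 were Klk8 (r = 0.993), a serine protease gene, Wfs1 (0.991), which encodes a protein of the endoplasmic reticulum, and Phb (0.990). Klk8 was at 39.5 CPM on average in KO-labelled libraries, 37.1 in Het-labelled libraries, 8.6 in WT-labelled libraries and 6.88 in SmoM2-labelled libraries. Closest to Fgfr4 were Lrrc20 (r = 0.989), Map2k3 (0.986), a kinase gene of the p38 pathway, and Pofut1 (0.982), which encodes the enzyme that adds fucose to Notch receptors.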

How the data were processed

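The members and all gene lists were chosen with earlier results of these data known. Named genes are every member, the genes of the lists, and for members whose group means spanned at least 1 on the log2 scale the 3 genes with the highest Pearson's r. Per the labels' protocols, RNA came from sorted cells, polyadenylated RNA was selected, and double-stranded cDNA was made into libraries. Per the submitters' processing notes, STAR, Subread and featureCounts were used with mm10. Versions, annotation and strand setting are not given in the sources used here. Per the file headers, the authors' table holds raw read counts per gene, gene lengths and the authors' RPKM values, and the deposited counts were tested as they stand. The listed counts made up 81.1% to 83.3% of the library totals that the authors' RPKM values imply.

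Genes were filtered with filterByExpr, scaled by TMM and fitted by quasi-likelihood over 8 libraries, with 4 group means in 1 model, in edgeR 4.0.16 (R 4.3.3), with 4 residual degrees of freedom. Tests were two-sided, adjusted by Benjamini-Hochberg over 13459 genes at a threshold of 0.05, and tested on simulated data first. CPM and RPKM printed as levels were computed from the counts on TMM-scaled sizes, and log2 CPM used a prior count of 2. The SE of a log2 change is the one the quasi-likelihood statistic implies. An exact permutation test of 2 libraries against 2 can reach no two-sided p below 0.333, so none was run. The sex covariate was read from Xist and Y-linked counts, and the dissociation covariate was the mean log2 CPM of 20 genes. Sex did not vary within the KO- or the Het-labelled group, so its effect was estimated from the WT- and SmoM2-labelled libraries alone. Gene positions and overlaps come from GENCODE M21 (GRCm38), and promoter windows from RefSeq. Alternatives were other scalings and filters, DESeq2 1.42.0, fits of fewer samples, a replicate block, a gene length trend, both covariates and each library left out. Fits without the Het-labelled group were added after seeing the data. Protein sequences were not used here, and some single genes of the lists are not reported here.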

Additional observations from a re-analysis of the deposited data

How the results depend on the processing

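Fgf8 and Fgf9 were higher in KO- against WT-labelled libraries under every alternative that tested them. Their log2 changes ranged from 3.63 to 4.65 and from 3.18 to 4.16. Both genes were chosen with this difference known, and Fgf9 passed the filter on low counts only through the libraries where it was high. These ranges are therefore a description, and nothing is supported with them. Fgf9 was not tested when 10 counts were needed in every library. In Het- against WT-labelled libraries Fgf8 ranged from 3.0 to 4.02 and Fgf9 from 2.45 to 4.25, and the dissociation covariate ended both calls. That covariate left 2 called members in KO- against WT-labelled (4 otherwise), 0 in Het- against WT-labelled (4), 0 in KO- against Het-labelled (1) and 3 with against without a conditional allele (7). The KO- against Het-labelled count was 2 with no filter on low counts, 2 with the groups compared alone in the fit and 2 with the sex covariate. With a library left out, the counts ranged from 2 to 4, 2 to 4, 0 to 2 and 4 to 8 in these comparisons in turn, and 0 to 0 in SmoM2- against WT-labelled libraries. Without the Het-labelled group the counts stayed at 4 in KO- against WT-labelled and 0 in SmoM2- against WT-labelled libraries.

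The members whose value changed sign were not called in that comparison in the fit as reported. In KO- against WT-labelled libraries Fgf20 was -0.03 with the length trend removed and -0.10 with the sex covariate, Fgfr3 0.11 and Fgfr4 -0.23 with the sex covariate. In Het- against WT-labelled libraries Fgf10 was 0.25 and Fgfr3 -0.15 with the dissociation covariate, and Fgfr3 -0.09 with the sex covariate. In SmoM2- against WT-labelled libraries Fgf10 was 0.17 and Fgfr1 0.06 with the dissociation covariate, and Fgfr3 in KO- against Het-labelled libraries was 0.20 with the sex covariate. With a library left out, KO- against WT-labelled values ranged from -0.30 to 1.0 (Fgf20), -0.71 to 0.37 (Fgfr3), -0.16 to 0.34 (Fgfr4) and -0.03 to 0.16 (Fgfr1). Het- against WT-labelled values ranged from -0.18 to 1.11 (Fgf20) and -0.32 to 0.77 (Fgfr3). SmoM2- against WT-labelled values ranged from -0.71 to 0.35 (Fgf8), -0.41 to 0.33 (Fgf9), -0.22 to 0.18 (Fgf10), -0.92 to 0.33 (Fgf20), -0.12 to 0.11 (Fgfr1) and -0.11 to 0.07 (Fgfr2). KO- against Het-labelled values ranged from -0.28 to 0.45 (Fgf9) and -0.26 to 0.02 (Fgf20). Among list genes the dissociation covariate turned Fos to -0.04 in KO- against WT-labelled libraries, Dusp5 to -0.04, Dusp6 to -0.25, Jun to -0.75 and Klf4 to -0.25 in Het- against WT-labelled libraries, and Fos to -0.05, Jun to -0.28 and Klf4 to -0.22 with against without a conditional allele. The cause was not tested.

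Of all tested genes, 3100 were called in KO- against WT-labelled libraries, 842 with the dissociation covariate and 1305 without KO-labelled replicate 1. In Het- against WT-labelled libraries 3402 were called, and 137 with that covariate. In SmoM2- against WT-labelled libraries 30 were called, with 8 to 356 over the alternatives. Deviations of same-numbered libraries correlated with r from -0.0606 to 0.0997, which gave no sign of pairing by replicate number. The exception was WT- with SmoM2-labelled libraries, at 0.391. In both of these groups replicate 1 was male and replicate 2 female in pattern. The part of sex in this value was not tested. The replicate block gave 4, 4, 0, 1 and 8 called members, with Fgf20 (0.55) as the additional call with against without a conditional allele. Fgf20 was also called there with no filter on low counts (0.49), with the sex covariate (0.57) and without WT-labelled replicate 1 (0.89), and Fgfr3 without WT-labelled replicate 2 (0.68). Fgfr2 was called in KO- against WT-labelled libraries with the length trend removed (0.39), and Fgfr4 in Het- against WT-labelled libraries with the sex covariate. Depth was lowest in the KO-labelled libraries, where 3 counts correspond to 0.664 and 0.653 CPM.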
